A study of Homo sapiens with 75 samples.

Results

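The response of HBL-2 cells to rituximab was read from 9 arrays, of 75 in the series: 3 of cells treated with rituximab, 3 of cells given PBS and 3 of cells given an isotype control antibody. HBL-2 is an established human mantle cell lymphoma line. Rituximab, an antibody against CD20, was given at 10 µg/ml. Neither the time of treatment nor the concentration of the isotype antibody stands in the labels. All cells were grown in RPMI1640 with fetal bovine serum, with no other agent named. Where other HBL-2 arms are used below, they are GA101 (obinutuzumab, a second antibody against CD20, 10 µg/ml, 3 arrays) and GA101 with rituximab (10 µg/ml each, 3 arrays, called the combination). The other lines of the study, also with 3 arrays for rituximab and 3 for PBS, are REC-1, JEKO-1, GRANTA-519 and Z138. The main contrast was rituximab minus PBS, and a change is called firm if it passed the test against PBS and had the same sign against the isotype antibody. HBL-2 is 1 line, and the labels do not say that the 3 replicates came from separate cultures. Each SE and p-value rests on the gene's spread between replicate arrays within the 25 groups of all 75 arrays. The other lines and arms therefore share in it, and it may be technical.

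CD20, the product of MS4A1, is a surface protein of mature B cells that sits close to the B cell receptor and has no known soluble ligand. Rituximab binds it, moves it into lipid rafts and is partly taken up with it into endosomes and lysosomes. Lysosomes hold acid hydrolases in a lumen kept acidic by the vacuolar proton pump. Their genes are turned on together by the MiT/TFE transcription factors (TFEB, TFE3, MITF). When nutrients are plentiful, these factors are kept in the cytosol with the help of the Rag GTPases, folliculin and its partners.

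Values are MAS5 intensities scaled to one mean per array, and 13870 genes were tested on log2 of them. Over the 9 arrays the median intensity ran from 13.8 to 17.4, and 4.32% to 6.3% of probe sets were listed at 0. Arrays of 1 HBL-2 group correlated at 0.964 to 0.97 and arrays of different groups at 0.96 to 0.972, over all probe sets; the ranges overlap. The log2 ratio of the actin control at its 3' against its 5' end, a sign of RNA quality, was 0.892 to 1.14 with rituximab, 1.1 to 1.32 with PBS and 0.982 to 1.14 with isotype. The part of that gap to PBS in the results was not tested. Of the cell type markers, HLA-DRA (arrays at 4528, 4810.2 and 4251 with rituximab), CD74, CD79A and CD79B were high in all 3 arms. The mantle cell lymphoma marker CD5 was at or near background, with 6.07, 7.11 and 2.02 on the rituximab arrays and 8.23, 7.96 and 7.17 on the PBS arrays. Of myeloid markers, CD14 was at a mean of 0 with rituximab and isotype and 0.663 with PBS, while LYZ was at 83.3 with rituximab, 85.8 with isotype and 87.6 with PBS. None of 27 T cell, NK, myeloid, epithelial, fibroblast and erythroid markers past the filter was called by limma, and 1 T cell or NK marker was lower at an unadjusted p under 0.05. Their summed intensity overlapped between arms except for the epithelial and fibroblast list, which was 162 to 182 with rituximab, 201 to 228 with PBS and 148 to 178 with isotype. With rituximab, 1 myeloid and 1 erythroid marker had a mean of at least 50, and none of the T cell and NK or the epithelial and fibroblast list did. The part of these signals in the results was not tested. In such bulk RNA, fewer cells of a state and less RNA per cell cannot be told apart.

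Rituximab changed 1032 genes against PBS, 7.44% of those tested, with 532 higher (3.84%) and 500 lower (3.6%), by limma with a Benjamini-Hochberg adjusted p under 0.05. Of these, 1016 (7.33% of genes tested) were firm, 524 higher (3.78%) and 492 lower (3.55%), and 706 of the firm genes also passed the threshold against isotype (411 higher, 295 lower). The test against isotype alone called 1360 genes, 9.81% of those tested (6.29% higher, 3.51% lower); both tests use the same rituximab arrays. Changes were mostly small: the median firm rise was 0.43 and the median firm fall was -0.38 on the log2 scale, and 73 firm rises but 35 firm falls reached 1. Leaving out 1 of the 9 arrays at a time gave 770 to 1007 firm genes; firm falls dropped from 492 to 320 without PBS replicate 1. With probe sets averaged per gene in place of the brightest one, 656 genes were firm, 539 of them shared.

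The largest rise among genes measured clearly above background was that of RGS1, which shuts off G protein signals from chemokine receptors in B cells. RGS1 read 300.3, 263 and 381 on the rituximab arrays, 22.6, 24.9 and 25.6 on the PBS arrays and 22.6, 25.5 and 26.7 on the isotype arrays. The 3 rituximab arrays lay far above all 6 control arrays, which did not differ among themselves beyond their spread. This is a 12.8-fold rise over PBS, with a log2 change of 3.67 ± 0.363 (SE, 3 arrays a group, limma adjusted p = 1.01e-11) and 3.64 against isotype. Its other probe set changed by 2.41.

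LY9, a SLAM family receptor on lymphocytes, read 479, 454 and 467 with rituximab, 53.5, 73.7 and 57.4 with PBS and 59.0, 65.7 and 70.9 with isotype. Its log2 change against PBS was 2.94 ± 0.159 (limma adjusted p = 1.01e-21), and its other probe sets changed by 3.12 and 4.73, so all 3 probe sets moved the same way. OAS1, an interferon-induced synthetase that activates RNase L, went from 153, 140.3 and 127 with PBS to 785, 804 and 603 with rituximab. The groups did not overlap, and the change was 2.37 ± 0.179 against PBS and 2.49 against isotype. ABCA1, which exports cholesterol from cells, read 1001, 947 and 1137 with rituximab, 199, 216 and 196 with PBS and 178, 196 and 209 with isotype, a 5.04-fold rise with a log2 change of 2.33 ± 0.303 (limma adjusted p = 3.41e-08). ST3GAL5, the sialyltransferase that makes the first ganglioside from lactosylceramide, read 533, 525 and 558 with rituximab against 149, 134 and 144 with PBS. Its change, 1.92 ± 0.0677, had the smallest SE of the 12 largest rises.

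The rest of the 12 largest firm rises with no overlap of arrays and a mean of at least 50 were OCA2, RNA45SN5, NEU1, UAP1L1, OAS2, LILRA4 and ASAH1, between 1.66 and 2.14. OCA2, a membrane protein of pigment cell organelles, was dim with PBS (17.5, 9.95 and 18.4) and read 74.8, 65.0 and 56.4 with rituximab. UAP1L1, a relative of the enzyme that makes UDP-N-acetylglucosamine, rose 3.29-fold, and LILRA4, a receptor best known from plasmacytoid dendritic cells, rose 3.25-fold. RNA45SN5, a ribosomal RNA precursor gene, rose 4.04-fold, from 245, 242 and 252 to 999, 1013 and 973; it has near-identical copies, so which copy was read is uncertain. HBEGF, an EGF receptor ligand, had a still larger fitted change of 3.95 but was close to background with PBS (3.09, 1.99 and 4.1) and read 55.6, 43.7 and 38.3 with rituximab, so the size of its ratio depends on values near the floor of 1. Its other probe set changed by 3.64.

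**Figure D1:**
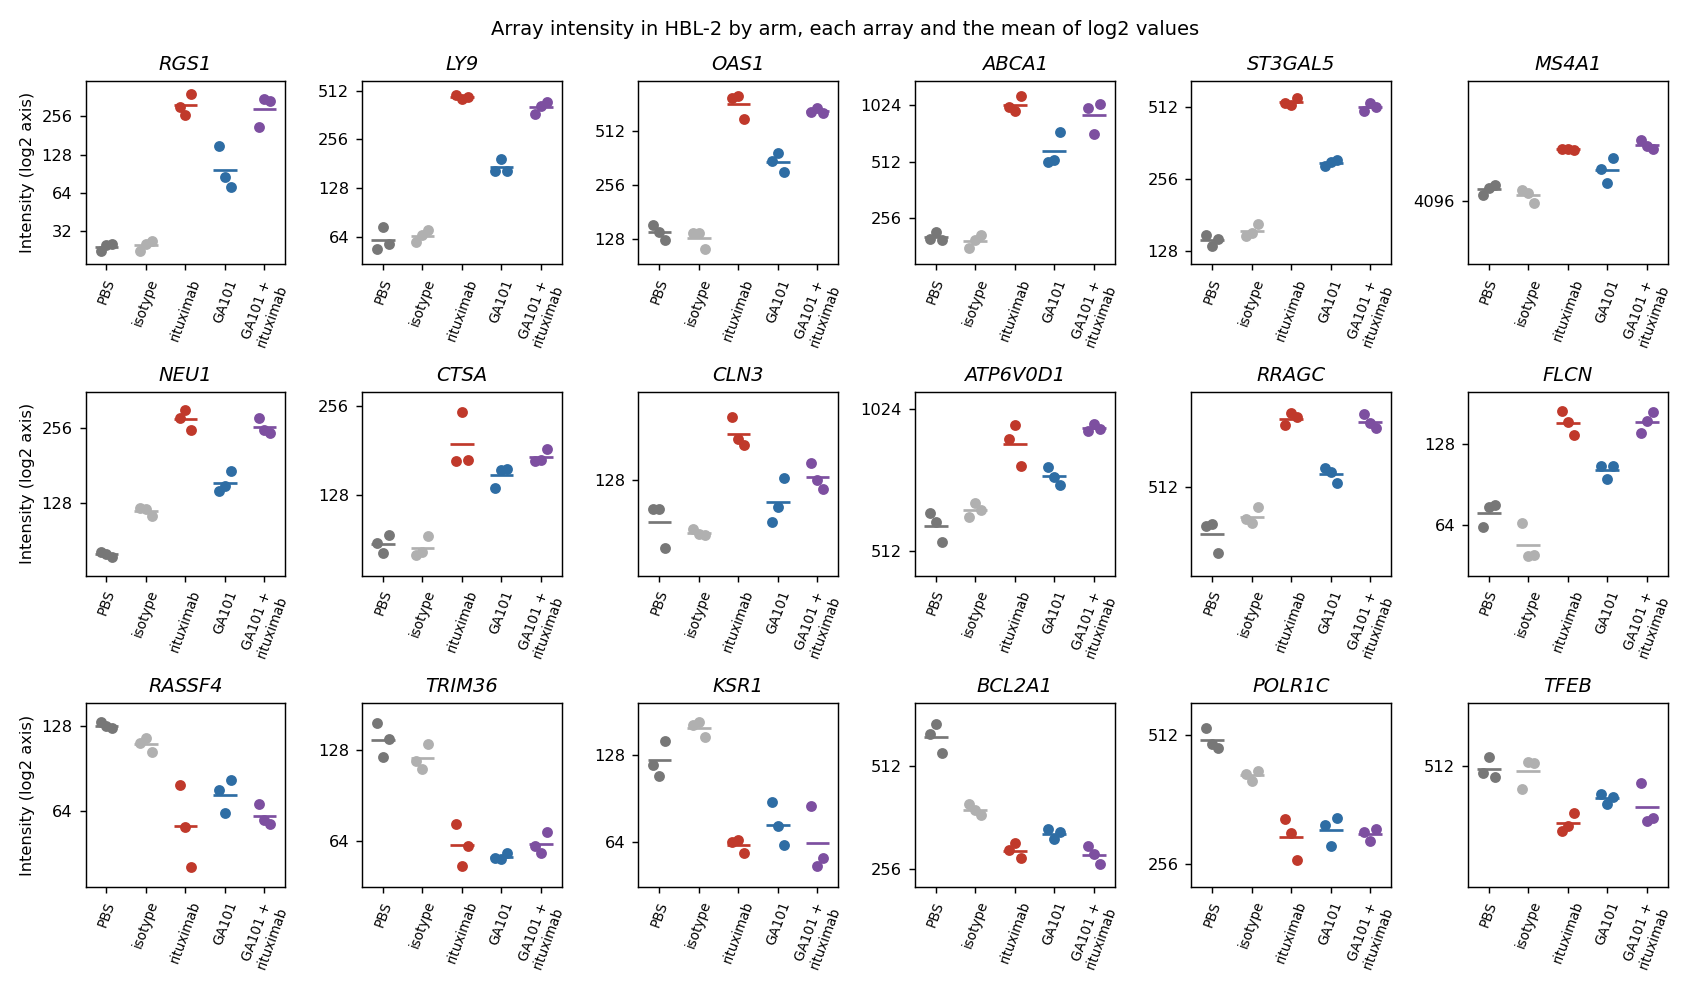
Intensity of 18 genes on each HBL-2 array, on a log2 axis with a range set per gene, by arm; points are arrays (3 a group) and bars the mean of log2 values. Rituximab arrays lie above all PBS and isotype arrays for the 12 genes of the upper rows and below them for the 6 of the bottom row, and BCL2A1 and POLR1C are also lower with isotype than with PBS.

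Lysosomal hydrolases, membrane proteins and proton pump subunits were among the firm rises. Over the 3 lists of lysosomal enzymes, lysosomal membrane and pump genes, and autophagy and MiT/TFE genes, 34 of 95 tested members rose firmly (35.8%, against 3.78% of all genes) and 1 fell; 60 were not firm. Their median change was 0.26 against PBS and 0.26 against isotype, where all genes had medians of -0.01 and 0.01. Without 1 array at a time, 27 to 34 members rose firmly. These lists were chosen with earlier results of the same arrays known, so their counts are a description and not independent evidence. The shares to set beside the counts of every list below are 3.78% of all genes for firm rises and 3.55% for firm falls.

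Among lysosomal enzymes, 13 of 37 tested rose firmly and none fell (24 not firm, median 0.14). NEU1, the lysosomal sialidase, read 281, 304 and 251 with rituximab, 81.3, 79.6 and 77.9 with PBS and 122, 122 and 114 with isotype. No arrays overlapped between these arms, and isotype was itself above PBS by 0.58 (limma adjusted p = 0.000594); the rituximab change was 1.80 ± 0.106 against PBS and 1.22 against isotype. ASAH1, acid ceramidase, rose from 888, 706 and 813 to 2974, 2324 and 2345, a change of 1.66 ± 0.101, and all 3 of its other probe sets also went up. CTSA, the protease that binds and stabilises NEU1, read 168, 246 and 168 against 88.5, 81.6 and 94.3 (1.12 ± 0.13, limma adjusted p = 1.72e-09); replicate 2 was its highest rituximab array. PSAP, the precursor of the saposins that present sphingolipids to their hydrolases, rose from 941, 847 and 747 to 1804, 1683 and 1693 (1.04 ± 0.0623).

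The other firm enzymes were NAGLU at 1.03, GM2A at 0.71, NPC2 at 0.59, CTSS at 0.56, DNASE2 at 0.50, TPP1 at 0.43, GLA at 0.38, CTSB at 0.34 and HEXA at 0.26. NAGLU and GLA cut sugars from heparan sulfate and glycolipids, GM2A and NPC2 carry gangliosides and cholesterol, and CTSB, CTSS and TPP1 are proteases. Members that were not firm included bright genes with small changes, such as CTSC at -0.02 (adjusted p = 0.949), IDS at -0.02 and PPT1 at 0.08 (adjusted p = 0.338).

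Of 27 membrane and pump genes, 13 rose firmly and none fell (14 not firm, median 0.35). They were 9 subunits of the vacuolar proton pump, which acidifies the lumen, with CLN3, LAMP1, SCARB2 and LITAF. CLN3, a lysosomal membrane protein lost in juvenile Batten disease, read 176, 157 and 153 with rituximab against 110.1, 110.5 and 90.2 with PBS, a change of 0.65 ± 0.133. Pump subunits moved by similar amounts: ATP6V1C1 changed by 0.59 ± 0.0721, ATP6V0D1 by 0.58 ± 0.099, and the smallest firm one, ATP6V0E1, by 0.35. ATP6V0D1 read 884, 945 and 775 against 615, 591 and 535, with no overlap. ATP6V0C rose by 0.56 against PBS but not past the threshold against isotype (0.28, adjusted p = 0.185), and without PBS replicate 3 its adjusted p was 0.0611. LITAF, too, did not pass against isotype. ATP6V0A1 (-0.14) and ATP6AP2 (-0.07) were not called.

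Of 31 autophagy and MiT/TFE genes, 8 rose firmly and 1 fell (22 not firm, median 0.19). The largest rises were in the Rag and folliculin group, which helps to keep the MiT/TFE factors in the cytosol. RRAGC, a Rag GTPase, read 779, 845 and 822 with rituximab, 394, 400.1 and 329 with PBS and 413, 402 and 448 with isotype. Every rituximab array was above every control array, and the change was 1.13 ± 0.0863 (limma adjusted p = 8.41e-16). FLCN, folliculin, read 171, 154 and 138.04 against 62.8, 74.7 and 75.8 (1.12 ± 0.142), and RRAGD, a close relative of RRAGC, 293, 274 and 359.7 against 167, 134 and 163 (0.996 ± 0.213).

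FNIP2, a folliculin partner, read 207, 200.1 and 195 against 80.3, 72.7 and 84.0, a change of 1.35 ± 0.435. Its arrays did not overlap, but its SE also takes in the spread within the other groups of the fit. Its limma adjusted p was 0.0432, and it rose to at most 0.122 when any of the 6 rituximab and PBS arrays was left out. The autophagy receptor SQSTM1 rose by 0.61, WIPI2 by 0.45, MAP1LC3B by 0.37 and GABARAP by 0.33. TFEB itself was lower: 373, 381 and 406 with rituximab against 495, 534 and 486 with PBS, a change of -0.38 ± 0.0995 (adjusted p = 0.00696, and 0.0521 without PBS replicate 2). TFE3 (-0.03 ± 0.172) and MITF (-0.04 ± 0.46), the other factors of the family, were not called, and MITF was near background. UVRAG passed against PBS (0.19) but had the opposite sign against isotype (-0.02) and is not firm.

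The promoters of 4 firm lysosomal genes are shown because they hold the palindrome that MiT/TFE factors bind and belong to genes that rose together. RefSeq promoters (GRCh38.p14) of 250 bases before to 50 after the start were found for 23 of the 34 firm rising members and 11135 of the 13870 genes. Each is printed 5′ to 3′ on the gene's strand from 250 bases before the start to the first 10 bases from it, with every CACGTG or TCACGTGA in capitals. CTSA lies at chr20:45891085-45891344 (plus strand), CLN3 at chr16:28492065-28492324 (minus), ATP6V0D1 at chr16:67481148-67481407 (minus) and LAMP1 at chr13:113296989-113297248 (plus).
CTSA: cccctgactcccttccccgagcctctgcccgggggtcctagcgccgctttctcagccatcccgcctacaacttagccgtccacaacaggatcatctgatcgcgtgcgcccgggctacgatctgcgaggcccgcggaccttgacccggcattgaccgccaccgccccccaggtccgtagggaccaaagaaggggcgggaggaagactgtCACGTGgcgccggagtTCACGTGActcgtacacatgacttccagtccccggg
CLN3: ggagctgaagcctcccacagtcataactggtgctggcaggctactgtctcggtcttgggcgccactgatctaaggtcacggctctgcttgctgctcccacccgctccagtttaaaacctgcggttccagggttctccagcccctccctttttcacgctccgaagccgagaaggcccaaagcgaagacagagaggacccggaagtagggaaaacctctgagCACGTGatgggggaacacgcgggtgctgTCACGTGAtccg
ATP6V0D1: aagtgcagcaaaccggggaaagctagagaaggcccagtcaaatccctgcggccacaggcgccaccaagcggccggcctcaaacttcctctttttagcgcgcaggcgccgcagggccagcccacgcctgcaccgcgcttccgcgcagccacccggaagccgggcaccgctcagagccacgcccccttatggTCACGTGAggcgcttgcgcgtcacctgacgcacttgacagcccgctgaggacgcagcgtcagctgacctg
LAMP1: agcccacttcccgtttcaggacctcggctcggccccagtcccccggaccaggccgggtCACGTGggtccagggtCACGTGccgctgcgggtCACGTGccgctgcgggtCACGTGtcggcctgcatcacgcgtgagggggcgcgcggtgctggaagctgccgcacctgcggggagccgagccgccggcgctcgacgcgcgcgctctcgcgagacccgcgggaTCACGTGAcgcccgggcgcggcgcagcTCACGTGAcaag
Matches begin 42 and 26 bases before the start in CTSA, 30 and 2 bases before it in CLN3, where the second runs past the start, and 60 bases before it in ATP6V0D1. LAMP1 has 6 matches, the first 192 bases before the start.

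TCACGTGA, which contains CACGTG, stood in 4 of the 23 promoters (17.4%) and CACGTG in 7 (30.4%). Both are palindromes, so 1 strand covers both. Of all 35116 promoters in the table, 0.98% held TCACGTGA and 7.26% held CACGTG; of the promoters of genes tested, 1.82% and 9.97% did. Among the other tested members of the 3 lists, 7 of 53 promoters held TCACGTGA (13.2%), so the motif was not limited to members that rose. Over all firm genes, 26 of 445 promoters of rising genes (5.84%) and 4 of 401 of falling genes (0.998%) held TCACGTGA. The shorter CACGTG stood in 72 promoters of rising genes (16.2%) and 54 of falling genes (13.5%). Both shares are above the 9.97% of genes tested, so the shorter motif was not limited to rises. These are matches of letters in a fixed window and were not tested.

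**Figure D2:**
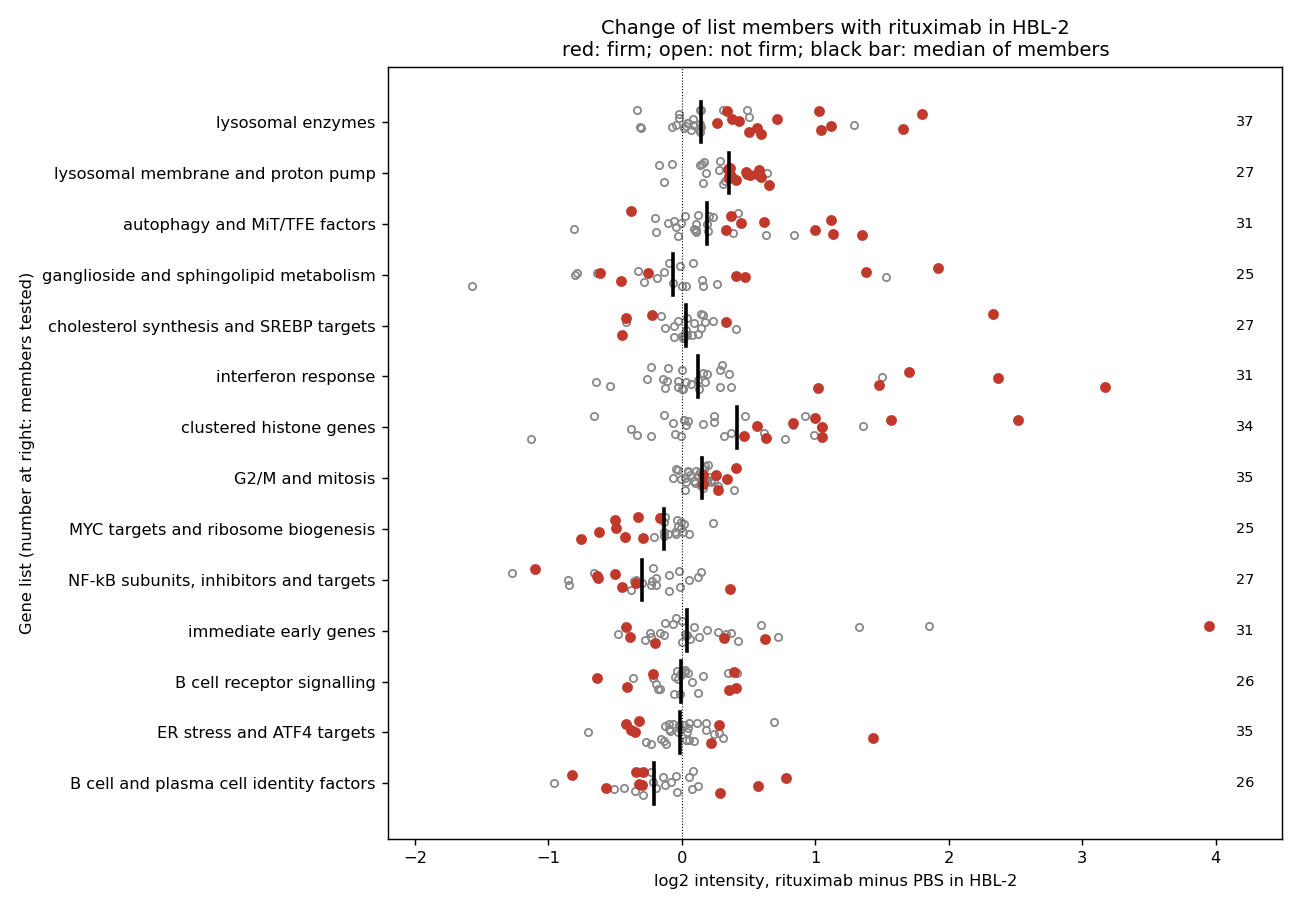
Change in log2 intensity, rituximab minus PBS in HBL-2, of every tested member of 14 gene lists; red points are firm, open points are not, the black bar is the median of the members and the number at the right is how many were tested. The 3 lysosome and autophagy lists have 34 firm members to the right of 0 and 1, TFEB, to the left, while the 8 firm members of the MYC and ribosome list are all to the left.

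Enzymes of ganglioside and sphingolipid metabolism split, with 4 of 25 firm rises and 3 firm falls (18 not firm, median -0.07). Next to ST3GAL5, SGPP1, a phosphatase of sphingosine phosphate, rose from 899, 761 and 721 to 2248, 1953 and 1996 (1.38 ± 0.0777). UGCG, which puts glucose on ceramide at the start of the pathway, rose by 0.47 ± 0.0505, and SPTLC2 by 0.41. B4GALT5 and SGMS1 passed against PBS only. UGT8, which makes the galactose counterpart, fell by 0.61 ± 0.107. In the cholesterol list, 2 of 27 members rose and 3 fell (22 not firm). ABCA1 and LSS (0.33) were higher, and MSMO1 (-0.45), INSIG1 (-0.42) and SQLE (-0.23), which are SREBP targets of sterol synthesis and its feedback, were lower. The LSS rise depends on its probe set: both of its dimmer probe sets went down against PBS, by -0.18 and -0.28.

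Of 31 interferon response genes, 5 rose firmly (3.78% of all genes did) and none fell (26 not firm, median 0.12). They were the 3 OAS genes, PARP9 at 1.02 and IFI44L. OAS2 read 241, 266 and 205 with rituximab against 61.7, 80.6 and 76.8 with PBS (1.699 ± 0.239), and OAS3 178, 153 and 195 against 57.6, 66.7 and 63.5 (1.48 ± 0.439, adjusted p = 0.0226, past 0.05 to at most 0.0851 in 5 of the 6 fits that left out 1 rituximab or PBS array). IFI44L was near background, with 8.09, 10.2 and 9.07 against 0.0, 0.0 and 1.03, and did not pass against isotype. Bright members such as PARP9 and OAS1 passed against both controls.

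Of 34 clustered histone genes, 9 rose firmly (3.78% of all genes did) and none fell (25 not firm). Their median was 0.41 against PBS, and 0.3 over the other 4 lines. H2AC14 read 106, 119 and 109 with rituximab against 41.2, 22.9 and 55.3 with PBS (1.57 ± 0.336) and H3C2 64.7, 66.0 and 79.6 against 34.98, 29.9 and 36.9 (1.05 ± 0.188). H1-5 had the largest fitted change, 2.52 ± 0.569, from 4.12, 16.9 and 3.07 to 33.4, 35.5 and 34.3, and H2AC16, also dim, lost its call without PBS replicate 3 (adjusted p = 0.0562). Histone genes are near-identical copies that share probe sequence, so the single genes are uncertain.

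The largest firm falls were smaller than the largest rises. RASSF4, a Ras association domain protein, read 78.9, 55.9 and 40.3 with rituximab, 133, 128 and 126 with PBS and 112, 117 and 104 with isotype. The rituximab arrays spread widely but lay below all controls, and the change was -1.20 ± 0.234 (limma adjusted p = 0.000182). TRIM36, a ubiquitin ligase, read 72.8, 52.8 and 61.5 against 157, 121 and 139 with PBS, 0.446 of the PBS level and a change of -1.17 ± 0.214. KSR1, a scaffold of the RAF, MEK and ERK kinases, read 63.7, 65.0 and 58.4 against 118, 108 and 143 and 162, 166 and 148 with isotype, and fell by 0.98 ± 0.164. Its dimmer probe set, at a mean of 16.9, went the other way by 0.53.

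SLC30A1, the zinc exporter of the plasma membrane, fell from 532, 560.4 and 507 to 299, 308 and 217 (-0.97 ± 0.103). GRK5, a kinase that desensitises G protein coupled receptors, fell from 335, 305 and 295 to 173, 159 and 152 (-0.95 ± 0.141). The Notch ligand JAG1 fell from 499, 502 and 442 to 259.9, 260.0 and 283 (-0.84 ± 0.124). In all 3 genes the rituximab arrays were below every PBS and isotype array, and JAG1 had 4 probe sets that agreed in sign. The other genes of the 12 largest falls were PEAK1 at -0.95, SPATA13 at -0.91, PMEPA1 at -0.89, IL21R at -0.88, STK17A at -0.87 and PPARGC1B at -0.84. PEAK1 is a pseudokinase of the actin cytoskeleton, PMEPA1 a brake on TGF-beta signals and PPARGC1B a coactivator of mitochondrial genes. PEAK1 was higher with isotype than with PBS by 0.50 (adjusted p = 0.0238). A dim probe set of GRK5 and one of SPATA13 had the opposite sign against PBS.

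Of 25 MYC target and ribosome biogenesis genes, 8 fell firmly and none rose (32% against 3.55% of all genes, 17 not firm, median -0.13). POLR1C, a subunit shared by RNA polymerases I and III, read 327, 303 and 261 with rituximab, 533, 488 and 477 with PBS and 416, 401 and 422 with isotype. The 3 arms formed 3 separate ranges, and rituximab changed by -0.76 ± 0.073 against PBS and by -0.48 against isotype. POLR1B, RRS1 and NOP58, a box C/D snoRNP protein, also fell, with changes of -0.50 ± 0.0531, -0.62 ± 0.0867 and -0.49 ± 0.0663. NOP16, NOP2, RRP12 and TFRC fell by less, and RRP12 and TFRC did not pass against isotype. MYC itself read 1391, 1498 and 1437 against 1909.7, 1833 and 1926, a change of -0.39 ± 0.0608 (limma adjusted p = 2.8e-06), and -0.56 against isotype. Leaving out 1 array gave 5 to 9 firm falls, with 5 without rituximab replicate 3 or PBS replicate 2. At an unadjusted p under 0.05, 13 members were lower and 0 higher.

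Of 27 NF-kB genes, 6 fell firmly (3.55% of all genes did), IRF1 rose, 20 were not firm, and the median was -0.3. The isotype antibody also lowered 6 members against PBS (0.937% of all genes), and 2 of the 6 firm falls, NFKB1 and RELB, passed against isotype as well. RELB lost its call without rituximab replicate 3 (adjusted p = 0.0831). NFKB1 read 316, 342 and 325 with rituximab, 510.3, 479 and 544 with PBS and 403, 409 and 406 with isotype. It was lowest with rituximab with no overlap, with changes of -0.64 ± 0.0697 against PBS and -0.31 against isotype. CD40, a receptor that feeds this pathway, had a change of -0.63 against PBS but -0.11 against isotype (adjusted p = 0.6), with overlapping arrays. BCL2A1, an NF-kB target that blocks apoptosis, read 290.2, 304 and 275 against 635, 676 and 557 with PBS and 395, 381 and 368 with isotype. Its change of -1.10 ± 0.302 against PBS became -0.40 against isotype (adjusted p = 0.558), and without PBS replicate 2 its adjusted p against PBS was 0.0547. IRF1 rose by 0.36 ± 0.103 (adjusted p = 0.0186), past 0.05 in 4 of the 6 fits that left out 1 rituximab or PBS array.

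MS4A1, the CD20 gene, was slightly higher with rituximab: 5289.5, 5295 and 5277 against 4225, 4379 and 4443 with PBS and 4339, 4274 and 4058 with isotype. The 3 rituximab arrays were nearly equal and above all 6 controls, for a change of 0.28 ± 0.0531 (limma adjusted p = 0.0001), or 1.22-fold. Its 3 other probe sets rose by 0.41 to 0.64. Of 26 B cell and plasma cell identity genes, 3 rose and 6 fell firmly (17 not firm, median -0.21). ID3, an inhibitor of E proteins, rose from 760.4, 567 and 582 to 1058, 1101 and 1084 (0.78 ± 0.107), and BACH2, a repressor of plasma cell fate, by 0.57 ± 0.157 (adjusted p up to 0.0972 without rituximab or PBS replicate 2).

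IKZF3, the B cell factor Aiolos, fell from 692, 511 and 484 to 310.4, 347 and 286 (-0.82 ± 0.109), and all its probe sets went down. IRF4, which drives plasma cell differentiation, and IKZF1 fell too, with changes of -0.57 ± 0.0788 and -0.30. SPIB, ETS1 and ID2 passed against PBS only. PAX5 read 991, 728 and 1238 against 1988, 1514 and 2188; the arrays did not overlap, but the change of -0.96 ± 0.354 did not pass (adjusted p = 0.0944). In each arm its replicate 2 was lowest and replicate 3 highest, and with the replicate number as a block PAX5 passed (limma adjusted p = 4.15e-06).

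In the mantle cell lymphoma list, 3 of 12 rose firmly (3.78% of all genes did) and none fell (9 not firm). The median of the list was nevertheless below 0, at -0.20 against PBS and -0.12 against isotype. SOX11, a transcription factor that marks this lymphoma, read 228, 229 and 279 with rituximab against 128, 100.5 and 145 with PBS (0.99 ± 0.178), and its other probe sets rose by 0.92 and 1.23. CDK4, the cyclin D1 partner kinase, rose by 0.20 ± 0.0487 but did not pass against isotype. CCND1, cyclin D1, read 908, 665 and 1506 with rituximab, 1285, 791 and 1885 with PBS and 1211, 652 and 1613 with isotype. In each arm replicate 2 was lowest and replicate 3 highest, and the arms overlapped, so its change of -0.36 ± 0.223 did not pass (adjusted p = 0.461); with the replicate number as a block, CCND1 passed (rituximab minus PBS, limma adjusted p = 0.000564).

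BCL2, an anti-apoptotic gene, rose from 2105, 2244 and 1975 to 3422, 3221 and 3342 (0.66 ± 0.066, limma adjusted p = 1.48e-11); 1 of its 3 dimmer probe sets had the opposite sign. In the anti-apoptotic list of 10 tested genes it rose, BCL2A1 fell and 8 were not firm. Of 9 pro-apoptotic genes, BID fell by 0.34 ± 0.0565, though not past the threshold against isotype, and BAX rose by 0.34 ± 0.107 (adjusted p = 0.0393, lost in 5 of 6 fits without 1 rituximab or PBS array). Of 26 B cell receptor signalling genes, 3 rose and 3 fell firmly (20 not firm, median -0.01). The SRC family kinases FYN and LYN fell, with changes of -0.64 ± 0.145 and -0.41 ± 0.0523, as did SYK at -0.22, which did not pass against isotype. The adaptors BANK1 and BLNK rose by 0.40 ± 0.0963 and 0.35, and PIK3CD by 0.39 (adjusted p = 0.0438, lost in 5 of 6 such fits). FYN was higher with isotype than with PBS (0.58, adjusted p = 0.0258).

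Of 35 chemokine, cytokine and receptor genes, 3 rose and 5 fell firmly (27 not firm). The homing receptors CCR6 and CCR7 rose by 1.13 and 0.76; CCR6 read 71.8, 48.8 and 63.5 against 31.9, 25.9 and 25.6, and its adjusted p was 0.064 without rituximab replicate 1. TNFRSF17, a survival receptor of plasma cells, rose from 137.9, 140.3 and 103 to 303, 290.5 and 296 (1.24 ± 0.261). The receptor genes IL21R, IL4R and IL10RA, with LTB and SOCS2, fell, with changes from -0.50 to -0.88; IL4R and LTB did not pass against isotype. Among 36 actin and adhesion genes, CD48, a SLAM family ligand, rose by 0.47 ± 0.0621. Its dimmer probe set, at a mean of 61.7, changed by -0.36 against PBS and 0.12 against isotype. CD58 fell by 0.57 against PBS but not past the threshold against isotype, and WIPF1, an actin regulator, rose by 0.28; 2 rose and 2 fell in all, and 32 were not firm.

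Immediate early genes split, with 3 of 31 rises and 3 falls (25 not firm, median 0.04). EGR1, a factor induced within minutes by ERK signals, read 71.8, 72.1 and 70.5 with rituximab, 56.6, 46.8 and 37.9 with PBS and 17.7, 37.3 and 43.2 with isotype. It rose by 0.62 ± 0.15 against PBS (adjusted p = 0.00338, and 0.0749 without PBS replicate 3) and by 1.23 against isotype, which was itself below PBS by the test (adjusted p = 0.0242) although their arrays overlapped. KLF6 rose by 0.32 and lost its call without PBS replicate 2 (adjusted p = 0.0793). IER5 fell by 0.42 ± 0.0439, and MYC also fell, as above. In the ER stress and ATF4 list, 3 of 35 rose and 4 fell (28 not firm, median -0.02). DDIT3, the stress factor CHOP, read 227, 205 and 175 against 60.7, 100.5 and 67.6 (1.43 ± 0.154), while the ATF4 targets SLC7A1, MTHFD2, CEBPG and TRIB3 fell, with changes from -0.32 to -0.42. Among 24 FOXO and quiescence genes, 4 rose and 2 fell (18 not firm); IRS2 rose from 398, 399 and 389 to 729, 719 and 738 (0.88 ± 0.0771) and CCNG2 by 0.83 ± 0.126, while YPEL5, which fell, lost its call without rituximab replicate 3 or PBS replicate 2 (adjusted p up to 0.117).

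Of 35 mitosis genes, 6 rose firmly and none fell (29 not firm, median 0.15), but leaving out 1 array gave 1 to 7 (1 without rituximab replicate 2, 3 without rituximab or PBS replicate 1, 2 without PBS replicate 3), and averaging probe sets gave 3. BUB1, a spindle checkpoint kinase, read 807, 773 and 733 against 581, 576 and 582 (0.41 ± 0.0615) and had a call in every fit without 1 array, whereas HMMR (0.34), NDC80 (0.27) and ANLN (0.25) lost theirs in 4 or 5 of 6 fits. Of 33 replication genes, RFC4 rose by 0.14 (lost in 3 of 6 fits) and E2F8 fell by 0.26 (limma adjusted p = 0.049, lost in all 6 fits). Each is 3.03% of that list, near the 3.78% and 3.55% of all genes. Of 21 p53 targets, BAX and CCNG1 rose and SESN1 and TRIAP1 fell, with changes from -0.36 to 0.34; CCNG1 lost its call in 4 and SESN1 in all 6 fits without 1 rituximab or PBS array. Heat shock genes gave 2 rises and 1 fall of 18, with STIP1 at 0.996 ± 0.217; DNAJB6 lost its call without rituximab replicate 2 (adjusted p = 0.0883) and DNAJB1 without rituximab replicate 3 (0.133). Hypoxia and glycolysis genes gave 2 and 2 of 32, with the dim BNIP3 at 1.58 and HK2, the first enzyme of glycolysis, at -0.62 ± 0.119; KDM3A lost its call in 4 fits.

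The NRF2 targets HMOX1 and GCLC fell, with changes of -1.44 ± 0.33 and -0.36 ± 0.0601, of 18 tested. HMOX1 read 10.1, 38.6 and 18.1 with rituximab against 49.4, 48.8 and 58.4 with PBS; without rituximab replicate 1, its lowest array, the adjusted p was 0.0863. RFXAP alone of 16 MHC class II genes was firm (-0.35, lost in 4 of 6 fits without 1 array), and CALR alone of 18 MHC class I genes (0.22, adjusted p up to 0.125 without rituximab replicate 1 or PBS replicate 2). In the lists of 8 TXNIP and arrestin domain genes and of 14 complement and Fc receptor genes limma called none; at an unadjusted p under 0.05, the former had 1 member higher and 1 lower and the latter 2 lower. With the replicate number as a block, TXNIP (-0.24, limma adjusted p = 0.0434) and the complement inhibitor CD59 (-0.28, 0.036) passed.

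The isotype antibody alone differed from PBS in 177 genes, 1.28% of those tested, 47 higher (0.339%) and 130 lower (0.937%; 26.6% higher, or 37.1% of 175 after quantile normalization). The contrast called 81 genes without isotype replicate 1, 107 without isotype replicate 2, 108 without PBS replicate 1 and 103 without PBS replicate 3. By the smallest adjusted p these were led by CHORDC1, TIAM1, PHF14, ENPP2 and DFFA. PHF14, at -0.57, turned to 0.14 with its probe sets averaged. CHORDC1, a partner of HSP90, read 1022, 983 and 1204 with isotype, 1882, 1650.3 and 1850.4 with PBS and 2067, 1900.3 and 1994 with rituximab, so isotype stood apart from both. For ENPP2, which makes lysophosphatidic acid, isotype arrays at 369, 311 and 364 were above PBS (167, 173 and 144) and rituximab (195, 181 and 169). Of the 1032 genes called against PBS, 16 had the opposite sign against isotype, 8 in each direction. They were led by TIAM1, MAT2A and NEXMIF. TIAM1, a RAC exchange factor, read 12.1, 13.2 and 11.1 with rituximab and 12.8, 12.8 and 16.4 with isotype against 3.09, 1.0 and 1.03 with PBS, all near background. MAT2A, which makes S-adenosylmethionine, had a change of -0.23 against PBS and did not differ from isotype beyond its SE.

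Rituximab and GA101, given at the same concentration, differed in 252 genes (1.82%), 199 higher with rituximab (1.43%) and 53 lower (0.382%); 79% were higher, or 62.3% of 247 after quantile normalization. Leaving out 1 array gave 153 to 239, the lowest without rituximab replicate 1. Of the 95 lysosome and autophagy genes, 15 were higher with rituximab and none lower. RGS1 was above GA101 by 1.68 ± 0.363 (limma adjusted p = 0.00332), LY9 by 1.43, OAS1 by 1.073, RNA45SN5 by 1.068 and ST3GAL5 by 0.85. TRAPPC14, with a difference of 1.01, was at its PBS level with rituximab and low with GA101, and lost the call without rituximab replicate 1 or GA101 replicate 2 or 3 (adjusted p up to 0.14).

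The genes furthest below GA101 were LIMA1 (-1.14 ± 0.142), an actin crosslinker, LTB (-0.92), CD69 (-0.71), CHST2 (-0.59) and STK17A (-0.58). CD69, an early activation marker of lymphocytes, read 118, 124 and 127 with GA101, 73.8, 74.1 and 78.6 with rituximab and 93.6, 84.6 and 85.0 with PBS, so GA101 arrays were above both. CHST2, a sulfotransferase, read 953, 873 and 901 with GA101 and 604, 608 and 595 with rituximab. For BCL2 rituximab was above GA101 by 0.29 ± 0.066, and for MYC the difference was -0.43 ± 0.0608. ABCA1 (0.82 ± 0.303, adjusted p = 0.192), CTSA (0.35 ± 0.13, 0.192) and MS4A1 (0.14 ± 0.0531, 0.19) did not pass, which does not show that the antibodies act alike on them.

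The contrast of the combination minus GA101 uses none of the 9 arrays. It reads rituximab added to a second antibody against CD20, so it is not a repeat of rituximab minus PBS. That contrast called 216 genes (1.56%), 145 higher (1.05%) and 71 lower (0.512%), and 143 in all without GA101 replicate 1. Of the 1016 firm genes, 813 (80%) had the same sign in it, against 55.8% of all genes tested. Of the 524 firm rises 94 were called higher and 2 lower, and of the 492 firm falls 34 were called lower and 4 higher. The opposite ones were EGR1 and RHOBTB1 among the rises and B4GALT5, INSIG1, MSMO1 and RNF145 among the falls, named after their values were seen.

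Medians in this contrast were small, 0.15 for the firm rises and -0.09 for the falls. ST3GAL5 was higher by 0.78 ± 0.0677 when rituximab was added to GA101 (limma adjusted p = 1.9e-12), RGS1 by 1.58 and ASAH1 by 0.83. INSIG1 was lower with rituximab than with PBS (-0.42), but higher in the combination than with GA101 alone (0.44 ± 0.0784). Against the same PBS arrays, the median of the firm rises was 0.43 with rituximab, 0.2 with GA101 and 0.35 with the combination, and that of the firm falls -0.38, -0.26 and -0.35; these share the PBS arrays that chose the genes and are given side by side only.

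**Figure D3:**
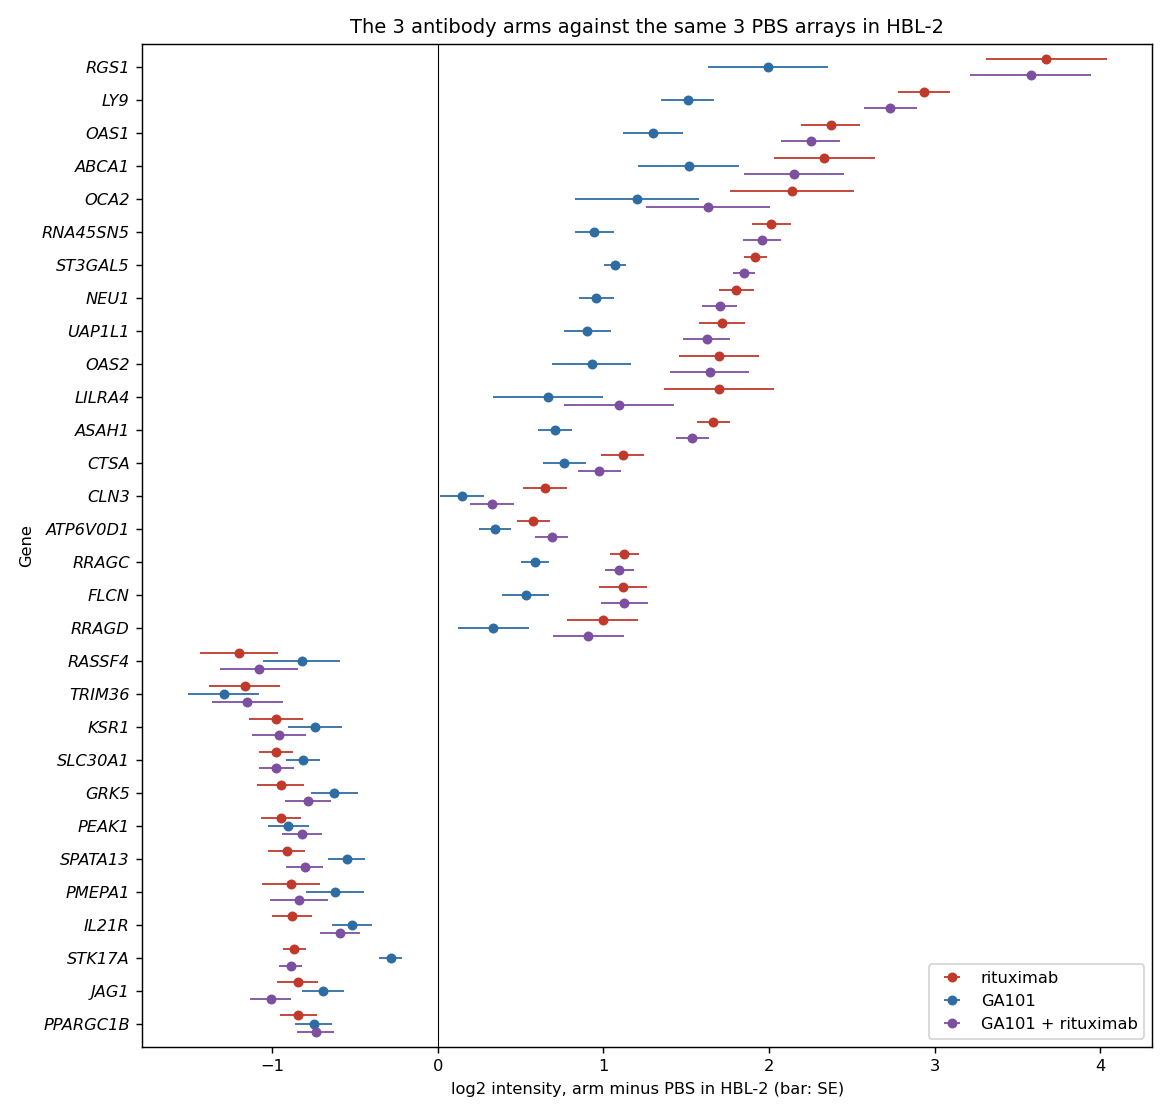
Log2 change against the 3 PBS arrays in HBL-2 for rituximab, GA101 and the combination, for the 12 largest rises, 6 lysosome and autophagy genes and the 12 largest falls; points are estimates and bars their SE from the limma fit. For RGS1 the change was 3.67 with rituximab, 2 with GA101 and 3.58 with the combination. TRIM36 was at -1.17 with rituximab and -1.29 with GA101, and PEAK1 at -0.95 and -0.90.

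The HBL-2 response was also set against that of the other lines. Rituximab minus PBS called 570 genes in Z138 (4.11%; 2.67% higher, 1.44% lower), 185 in GRANTA-519 (1.33%; 0.916% and 0.418%), 549 in JEKO-1 (3.96%; 2.67% and 1.28%) and 632 in REC-1 (4.56%; 3.17% and 1.38%), against 7.44% in HBL-2. The test of the difference, HBL-2 minus the mean of the other 4 lines, called 680 genes (4.9%), 291 higher in HBL-2 (2.1%) and 389 lower (2.8%). Of the 1016 firm genes, 543 (53.4%) passed it, 257 rises and 286 falls, all in the direction of the HBL-2 change. That test shares the HBL-2 arrays with the choice of firm genes, so the share and its direction are a description. With isotype in place of PBS in all lines it called 635 genes.

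Signs in the other lines rest on separate arrays. The share of firm genes with the HBL-2 sign was 73.3% in JEKO-1 against 57.3% of all genes, 68% in Z138 against 58%, 55.3% in GRANTA-519 against 52.1% and 52% in REC-1 against 49.9%. JEKO-1 called 161 of the firm genes in the same direction (15.8% of firm genes, 29.3% of its own calls), REC-1 105 and GRANTA-519 29; in Z138 13.6% of firm genes were called the same way. For 693 firm genes none of the other 4 lines had a call in the same direction, and RNA45SN5 alone had one in all 4.

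RGS1 departed by 2.87 ± 0.406 from the mean of the other lines (limma adjusted p = 5.15e-07); it rose in JEKO-1 by 2.01 and read 0.98 in Z138 (adjusted p = 0.124) and -0.12 in GRANTA-519. ABCA1 departed by 2.53 ± 0.339; in the other lines its changes ran from -0.90 to 0.20 and none passed. For ST3GAL5 the departure was 1.60 ± 0.0757, although it also rose in Z138 (0.25), JEKO-1 (0.40) and REC-1 (0.58). RNA45SN5 rose in every line, with a departure of 0.45 ± 0.13. LILRA4 rose in HBL-2 and fell in Z138 (-1.13). Of the lysosome and autophagy genes 26 of 95 departed upward and none downward, with ASAH1 at 1.32, RRAGC at 1.04 and PSAP at 0.90. The median of the 3 lists over the other lines was 0.09, and 0.26 in HBL-2.

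Among firm genes with a mean of at least 50 in the higher arm, those furthest below the other lines were HMOX1 (-1.50 ± 0.369), TRIM36 (-1.25 ± 0.24), PLEKHA5 (-1.21 ± 0.305), KSR1 (-1.11) and IL21R (-1.05). PLEKHA5 lost the call without rituximab replicate 1 or PBS replicate 3 (adjusted p up to 0.0884) and HMOX1 without rituximab replicate 1 (adjusted p = 0.127). With isotype in place of PBS, the departure was -0.32 for PLEKHA5 (limma adjusted p = 0.759) and -1.18 for HMOX1 (0.0504), while TRIM36, KSR1 and IL21R passed. In HBL-2, PLEKHA5 did not pass against isotype (-0.61, limma adjusted p = 0.185). Its other probe set, which was dim, changed by 0.17 against PBS. TRIM36 lay between -0.19 and 0.30 in the other lines. In the MYC and ribosome list, 10 of 25 genes departed downward and none upward, with a median of 0.07 over the other lines against -0.13 in HBL-2. MYC itself was -0.39 in HBL-2 and 0.19 on average elsewhere, a departure of -0.58 ± 0.0679. MS4A1 departed by 0.30 ± 0.0593 (limma adjusted p = 0.000322).

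**Figure D4:**
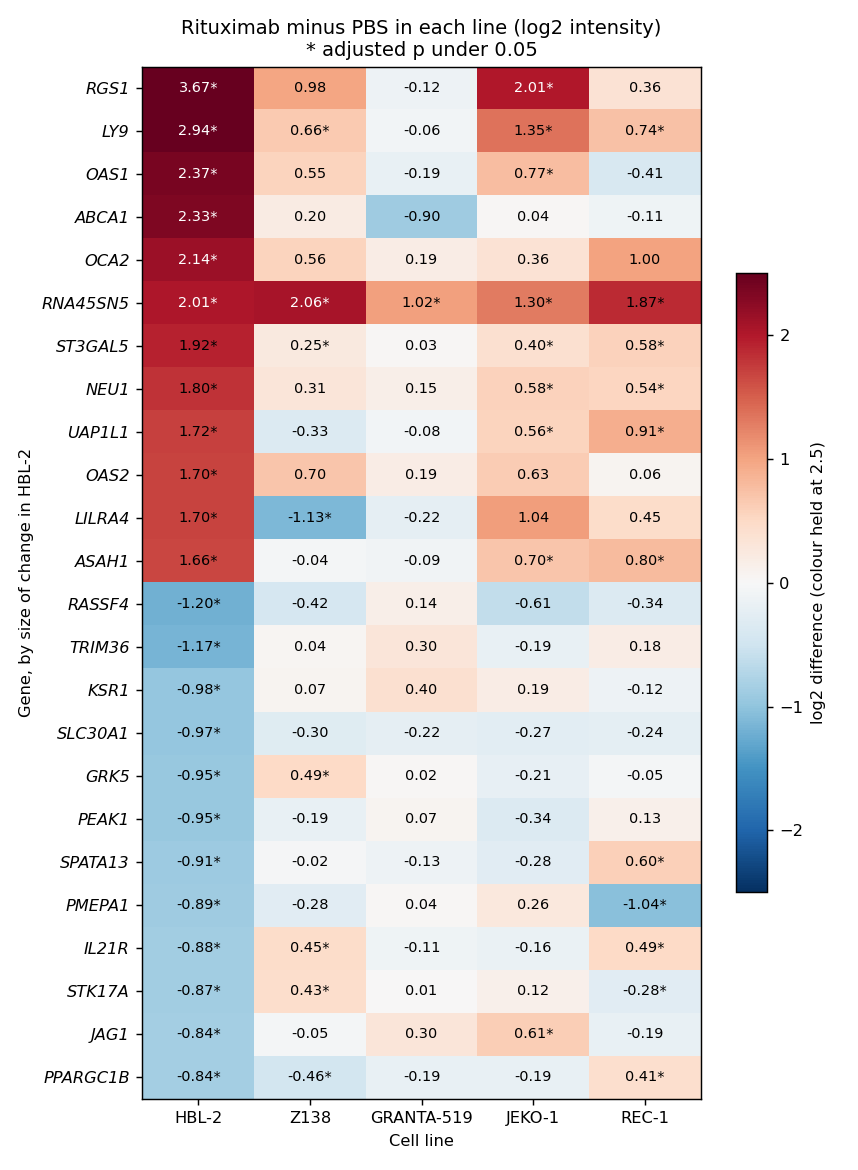
Rituximab minus PBS in log2 intensity for the 12 largest firm rises and 12 largest firm falls of HBL-2, in each of the 5 lines; colour is held at 2.5 and an asterisk marks a limma adjusted p under 0.05. The genes were chosen in HBL-2, so that column is high or low by construction; RNA45SN5 alone is marked in all 5 lines, and GRANTA-519 is marked for no other gene.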

How the data were processed

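RNA of 75 samples (5 lines, 5 arms, 3 arrays each) was measured on 1-colour arrays of 54675 probe sets, from 100 ng total RNA each. The deposited values are intensities on a linear scale that the authors made with MAS5, per the submitters' processing notes; its settings were not stated, and its version is not given in the sources used here. MAS5 sets dim probe sets at or near 0, so ratios of dim genes are imprecise, and the number of arrays limits the precision. Every array had the same mean.

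Values under 1 were set to 1 and log2 taken. Probe sets with 1 gene symbol were kept if any of the 5 lines had a mean log2 value for them greater than the median of all. The brightest stood for its gene, giving 13870 genes. A gene dim in HBL-2 could therefore pass through its level in another line. The alternative filter on the HBL-2 arrays left 12282 genes. Of the 54675, 41097 had 1 symbol, 1801 several and 11777 none. limma 3.58.1 (R 4.3.3) fitted 25 group means with an intensity trend, and p-values, all two-sided, were adjusted over all genes by Benjamini-Hochberg. On simulated arrays, 70 of 100 genes changed by 1 on the log2 scale and 44 of 100 changed by 0.5 were called for rituximab minus PBS over 13870 genes.

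Genes named were MS4A1 and CCND1, the 12 largest rises and falls that passed against both controls with no overlap of arrays and a mean of at least 50, up to 4 leading firm members of each list with the largest of the opposite direction, and the leading genes of the other contrasts. Other list members were named after their values were seen, and 1 member is not reported here. The members and gene lists were chosen with earlier results of these data known. Promoters came from RefSeq (GRCh38.p14). Alternatives changed the floor, pseudocount, filter, probe set rule, normalization, trend, weights, samples, control arm, replicate block and arrays left out.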

Additional observations from a re-analysis of the deposited data

Results flagged for a closer look

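The response to rituximab in HBL-2 differed from the mean response of the other 4 lines in 680 genes, by the limma test of that difference (adjusted p under 0.05). It was passed by 4.9% of all genes, 53.4% of firm genes and 82 of 113 named firm genes, of which 10 were named by this difference. On the log2 scale, the HBL-2 response exceeded that of the other lines by 2.87 for RGS1, 2.53 for ABCA1, 2.26 for LY9, 2.19 for OAS1, 1.66 for LILRA4, 1.61 for OCA2, 1.60 for ST3GAL5, 1.45 for UAP1L1, 1.41 for NEU1, 1.32 for ASAH1, 1.30 for OAS2, 0.45 for RNA45SN5 and 0.30 for MS4A1. The difference was -0.63 for PMEPA1, -0.72 for SLC30A1, -0.73 for PPARGC1B, -0.86 for PEAK1, -0.89 for RASSF4, -0.94 for STK17A, -0.95 for SPATA13, -1.01 for JAG1, -1.01 for GRK5, -1.05 for IL21R, -1.11 for KSR1, -1.21 for PLEKHA5, -1.25 for TRIM36 and -1.50 for HMOX1. These genes were chosen for their change in HBL-2, except that PLEKHA5 was chosen for the difference itself, as RGS1, ABCA1, LY9, OAS1, LILRA4, HMOX1, TRIM36, KSR1 and IL21R also were. With isotype in place of PBS, PLEKHA5, HMOX1, PMEPA1 and RASSF4 did not pass (limma adjusted p = 0.759, 0.0504, 0.142 and 0.0648). No cause was tested.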

How the results depend on the processing

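Averaging probe sets per gene gave 663 genes against PBS (335 higher, 328 lower), 851 against isotype (546 and 305), 656 firm (331 and 325), 427 also past the threshold against isotype, 87 for isotype minus PBS, 164 against GA101, 130 for the combination minus GA101, 419 against the other lines and 3 mitosis genes. It reversed LSS (-0.039) and PHF14 in isotype minus PBS (0.14), and 36 of the 139 single-gene results of named genes lost their call. Such calls were also lost in 15 results with isotype in place of PBS and in 9 with HBL-2 arrays only. No filter cost 8, a floor of 16 cost 5, and each other setting at most 4. Over all fits without 1 array, 88 results lost their call and 746 stayed the same. A floor of 16 gave 269 genes for isotype minus PBS and 393 against GA101, and the fit of HBL-2 arrays only gave 86 for isotype minus PBS. With isotype in place of PBS, TIAM1 (-0.20), MAT2A (0.0026) and NEXMIF (0.33) reversed. The cause was not tested. The share of firm genes that were higher was 49.8% to 52.1% over the settings other than the fits without 1 array. In the fits without 1 rituximab or PBS array, the share of calls against PBS that were higher varied more. It ran from 46.7% without rituximab replicate 2 to 58.4% without PBS replicate 1.

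Leaving out 1 array gave 789 to 868 genes against PBS (379 to 477 higher, 328 to 459 lower), 1035 to 1184 against isotype (633 to 807 and 361 to 426), 770 to 1007 firm genes (377 to 525 and 320 to 490), 562 to 629 also past the threshold against isotype, 81 to 197 for isotype minus PBS, 153 to 239 against GA101, 143 to 190 for the combination minus GA101 and 522 to 587 against the other lines. Firm counts were 27 to 34 for the lysosome and autophagy lists, 5 to 9 for MYC and ribosome falls, 6 to 10 for histones, 4 to 6 for NF-kB falls and 1 to 7 for mitosis.

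Replicate numbers are shared between arms but nothing in the labels says that they pair samples; deviations of same-numbered HBL-2 arrays correlated at -0.0119 to 0.0984 over the 5 arms (0.0107 to 0.0689 over rituximab, PBS and isotype), and 13 of 15 arrays correlated best with their own number, a hint from the data and not the design. With the replicate block, 1245 genes were firm (1005 of them shared), and the counts were 1276 against PBS, 1638 against isotype, 262 for isotype minus PBS, 370 against GA101, 303 for the combination minus GA101 and 906 against the other lines; of the genes named by rule only CCND1 changed its call, and of 721 list members 25 gained one against PBS, PAX5 among them, and 0 lost one.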
